A study of Mus musculus with 4 samples.

Results

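The collagen chain genes were followed here through RNA sequencing of immortalized mouse dermal fibroblasts (imMDFs) that lack LAP2alpha. Members were all transcript IDs in the count tables whose RefSeq symbol has the form Col, a type number, the letter a and a chain number. This gave 44 genes of the 23732 genes with a symbol, through 53 of 32757 transcript IDs. For the 8 genes with several IDs, the ID with the highest summed count was used. By known protein architecture, 11 members were fibrillar, 6 belonged to the type IV network of basement membranes, 9 were fibril-associated collagens with interrupted triple helices (FACITs), 4 were transmembrane collagens and 14 were of other kinds. Of the 44 genes, 41 passed the filter of at least 1 CPM (counts per 1000000 reads given to transcripts) in both libraries of at least 1 genotype, and *Col9a1*, *Col17a1* and *Col25a1* did not.

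The 4 libraries were made from *Tmpo* KO imMDFs (labelled Lap2alpha -/-) at passages 34 and 42 and from *Tmpo* WT imMDFs (labelled Lap2alpha +/+) at the same passages, all from untreated dermal cells, with 1 line named per genotype. The KO line carries a deletion of exon 4 of *Tmpo*, the exon specific to LAP2alpha, a nucleoplasmic partner of lamin A/C. Genotype and cell line therefore cannot be told apart, and neither can fewer cells of a kind and less RNA per cell. Replicates are passages of the same line, so the p-values describe no more than how these 4 libraries scatter, a scatter that may be technical.

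Collagens are secreted proteins in which 3 chains wind into a triple helix, and glycine fills 1 in 3 positions of that helix because no larger residue fits at its core. Fibroblasts of the dermis make the bulk of the skin's type I and type III fibrils, copolymerized with type V collagen. FACITs such as type XII sit on fibril surfaces, type VI forms beaded filaments around cells, and type VII forms the anchoring fibrils that tie the epidermis to the dermis.

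The repeat that defines the family is visible in its exons. The 5 sequences below come from the genes whose level differed between the genotypes. Each is the first coding exon of 54 bases that starts on a whole codon and has a glycine codon at the start of all 6 triplets. They are read 5′ to 3′ from the NCBI37/mm9 genome, with the glycine codon of every triplet in capitals.
Col27a1: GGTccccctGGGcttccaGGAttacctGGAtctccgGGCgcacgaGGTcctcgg
Col7a1: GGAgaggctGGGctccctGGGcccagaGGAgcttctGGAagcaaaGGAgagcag
Col2a1: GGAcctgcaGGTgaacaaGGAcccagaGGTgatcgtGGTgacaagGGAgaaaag
Col23a1: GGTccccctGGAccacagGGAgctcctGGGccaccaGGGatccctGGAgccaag
Col6a5: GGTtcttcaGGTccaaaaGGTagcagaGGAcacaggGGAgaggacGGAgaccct
They lie at chr4:62892826-62892879 (plus strand, coding exon 4 of 61), chr9:108869217-108869270 (plus, 48 of 118), chr15:97828976-97829029 (minus, 6 of 54), chr11:51382963-51383016 (plus, 17 of 28) and chr9:105820516-105820569 (minus, 13 of 41). By this choice each exon encodes 18 codons, 6 of which are the glycines of 6 complete triplets. Proline codons, the residues that stiffen the helix, numbered 6 in the *Col27a1* exon and 7 in the *Col23a1* exon, against 2, 2 and 2 in those of *Col7a1*, *Col2a1* and *Col6a5*. Over the family, 469 of 2006 coding exons (23.4%) were 54 bases long, against 0.655% of the 197568 coding exons of all 22737 coding genes of the annotation. The share was 47.0% in fibrillar genes, 25.3% in FACITs, 8.81% in transmembrane, 6.17% in other and 4.04% in basement membrane genes. The longest uninterrupted run of glycine triplets was 216 to 344 triplets in fibrillar genes, with the shortest in *Col24a1* (216) and *Col27a1* (217), and 23 to 113 in the remaining classes. A run of at least 30 triplets was found in 51 coding genes, of which 42 were collagen genes.

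Between 12168433 and 19603812 reads per library were given to transcripts, 31.4% to 36.7% of the reads in a file. The *Tmpo* transcript of LAP2alpha had 6 and 6 counts in the KO libraries, against 903 and 1324 in WT (log2 fold change −7.86 ± 0.34, SE; adjusted p = 1.26e-06). Fibroblast markers summed to 7132 and 6336 CPM in KO and to 6598 and 4631 CPM in WT, led by *Vim*, whereas *Pdgfrb* was listed at 0 in all 4 libraries and *Dcn* and *Lum* were at 12.6 CPM or less. Among the fibroblast markers *Thy1* was called higher in KO (log2 fold change 1.80 ± 0.27) and *Postn* lower (−2.31 ± 0.53). *Postn* had 10 and 21 counts in KO, against 29 and 95 in WT. The sums of keratinocyte, endothelial, immune, adipocyte and chondrocyte markers were 1.45 to 16.6 CPM in every library, and those of melanocytes, nearly all *Tyr*, 29.8 to 43.9 CPM. Smooth muscle markers summed to 215 and 184 CPM in KO, against 262 and 245 CPM in WT, nearly all of it *Cnn1*, while *Myh11* was at 0.308 CPM or less. Markers with several transcript IDs, among them *Pdgfrb*, *Dcn*, *Postn*, *Pecam1*, *Tek*, *Ptprc*, *Cd68*, *Plin1*, *Ucma* and *Myh11*, were counted through 1 ID. Reads in stretches that IDs share were set aside as ambiguous, so low values of these markers do not show that the gene is silent. *Cnn1* was not called (adjusted p = 0.545), and its part in the results for collagen genes was not tested. Of all 13855 transcripts tested, 2.75% were called (adjusted p under 0.05 in edgeR's quasi-likelihood test), 1.51% higher and 1.24% lower in KO.

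Among the 41 tested collagen genes, 2 were called higher in *Tmpo* KO and 3 lower, which is 4.88% and 7.32% of them, against the 1.51% and 1.24% of all transcripts. *Col27a1*, a fibrillar chain, and *Col7a1*, the anchoring fibril chain, were the genes called higher. *Col2a1*, the main fibrillar chain of cartilage, *Col23a1*, a transmembrane collagen, and *Col6a5*, a chain of type VI collagen, were called lower. Among the 38 members with at least 1 CPM in all 4 libraries, which leaves out *Col2a1*, 2 were called higher and 2 lower in a fit of such transcripts, against 1.33% and 1.21% of all 12399. Each such share rests on 2 or 3 genes. The other 36 tested genes did not pass, and these included the 12 with the highest mean CPM. Both KO libraries stood above both WT libraries in 12 collagen genes and below them in 10, or 29.3% and 24.4% of the 41, against 21.9% and 19.9% of all transcripts. Of these 10, *Col2a1*, *Col18a1* and *Col26a1* passed the filter through WT alone, the group where they are high, so the 24.4% is a description only. Across the 41 genes the median log2 fold change was 0.15, against 0.02 for all transcripts. The likelihood ratio test of edgeR called 5 collagen genes higher and 4 lower (all transcripts, 2.52% and 2.09%), and edgeR's exact test called as many (2.43% and 2.0%). DESeq2 called 4 higher and 4 lower (2.02% and 1.91%), and without a filter on low counts 6 were called in each direction (1.63% and 1.34%).

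**Figure D1:**
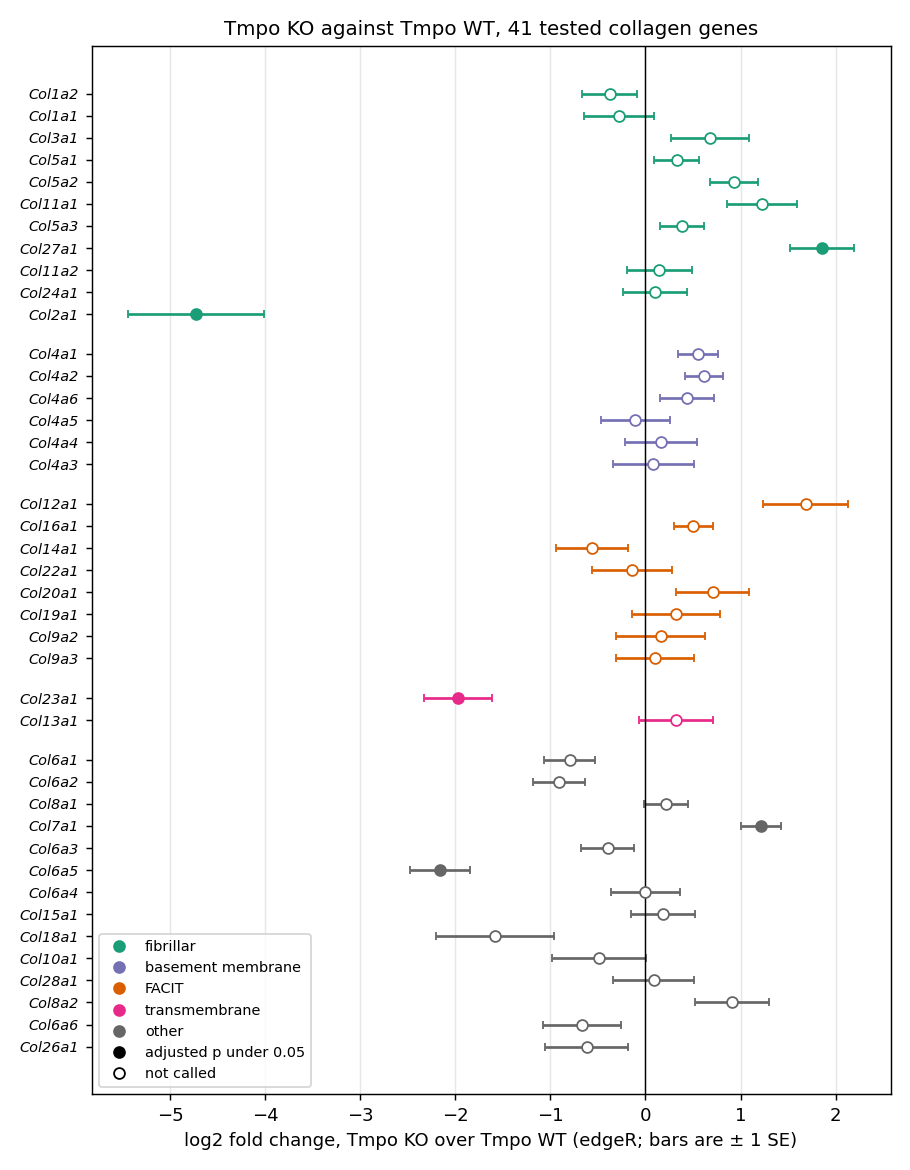
Log2 fold change of *Tmpo* KO over *Tmpo* WT (x axis; bars are 1 SE on either side) for the 41 tested collagen genes (y axis), by class and, within a class, by mean CPM. Filled points mark the 5 genes with an adjusted p under 0.05: *Col27a1* and *Col7a1* lie right of 0, and *Col2a1*, *Col23a1* and *Col6a5* left of it.

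Fibrillar genes carried most of the collagen reads, and the 2 called among them, *Col27a1* and *Col2a1*, were at low levels in these cells. The principal chains of type I collagen, *Col1a2* and *Col1a1*, were the most abundant members. *Col1a2* was at 2924 and 4807 CPM in KO (passages 34 and 42), against 5147 and 4879 CPM in WT. The KO library at passage 34 was the low one, and the other 3 were close to each other. *Col1a1* was at 1242 and 2743 CPM in KO, against 1798 and 3046 CPM in WT, with each passage 34 library below both passage 42 libraries. Neither chain was called (log2 fold change −0.38 ± 0.29 for *Col1a2* and −0.28 ± 0.37 for *Col1a1*; adjusted p = 0.704 and 0.860), and the range of 2 SE about each estimate, −0.95 to 0.20 and −1.01 to 0.45, holds both decreases and increases. Without the KO library at passage 42, *Col1a1* was called lower (−1.01, adjusted p = 0.0368). *Col3a1*, the type III chain, was at 869.8 and 2614 CPM in KO, against 1263 and 909.7 CPM in WT. Its highest and its lowest value were both in KO, so the groups overlapped (log2 fold change 0.68 ± 0.41, adjusted p = 0.573). Without the KO library at passage 34 it was called higher (1.26, adjusted p = 0.00214).

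The type V chains, which join type I fibrils and limit their width, differed in how far the genotypes separated. *Col5a2* was at 703 and 1094 CPM in KO, against 504 and 439 CPM in WT. Both KO libraries were above both WT libraries, and the log2 fold change of 0.93 ± 0.25 missed the threshold (adjusted p = 0.0894). *Col5a1* was at 702 and 997 CPM in KO, against 629 and 726 CPM in WT, and overlapped (0.33 ± 0.24, adjusted p = 0.672). *Col11a1*, a type XI chain that can take the place of a type V chain, was at 78.1 and 219 CPM in KO, against 60.9 and 66.4 CPM in WT. The KO library at passage 42 alone was far from the other 3, and the gene was not called (1.22 ± 0.37, adjusted p = 0.142). *Col5a2* and *Col11a1* were called by edgeR's likelihood ratio and exact tests and by DESeq2, and in the quasi-likelihood test when the KO library at passage 34 was left out.

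*Col27a1* gave the largest increase in the family. It was at 18.7 and 29.9 CPM in KO (304 and 576 counts), against 8.0 and 5.49 CPM in WT (95 and 86 counts). The means were 24.3 ± 7.91 CPM in KO and 6.75 ± 1.78 CPM in WT (SD, n = 2 each), and the lower KO value was above the higher WT value. The fold change was 3.62 (log2 1.86 ± 0.34, adjusted p = 0.0141). The gene lies at chr4:62875038-62996025 on the plus strand of NCBI37/mm9 and has 61 coding exons, 33 of which, including the one shown above, have 54 bases. Its closest relative in architecture, *Col24a1*, the other fibrillar gene with a shortened helix, was at 6.29 and 5.92 CPM in KO, against 5.22 and 6.13 CPM in WT (0.10 ± 0.33, adjusted p = 0.954). Without the WT library at passage 42, *Col27a1* was no longer called (adjusted p = 0.218).

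*Col2a1* gave the largest decrease, on few reads. It had 0 and 4 counts in KO (0 and 0.208 CPM), against 30 and 59 counts in WT (2.53 and 3.77 CPM). The gene passed the filter through its WT libraries alone, the group where it is high, so its difference is given as a description and supports nothing about the family. The fitted log2 fold change was −4.73 ± 0.71 (adjusted p = 0.00474), a size that depends on the small number that edgeR adds to counts. It was −3.89 without the KO library at passage 34 and −8.55 without that at passage 42. The gene lies at chr15:97806033-97835155 on the minus strand and has 2 transcript IDs in the tables. Reads in stretches that both IDs share were set aside as ambiguous, so these counts describe only what the used ID does not share, and the other ID had 0 counts in all 4 libraries. The summed markers of chondrocytes, the cells known for type II collagen, were 4.68 and 3.74 CPM in KO, against 3.87 and 3.19 CPM in WT. Of these markers *Ucma*, counted through 1 of its 3 IDs, was listed at 0 throughout, and *Acan* reached 2.27 CPM. Their part in the *Col2a1* result was not tested. Without the WT library at passage 42 the adjusted p was 0.0705. The remaining fibrillar genes, *Col5a3* and *Col11a2*, had log2 fold changes of 0.39 and 0.15 and were not called.

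**Figure D2:**
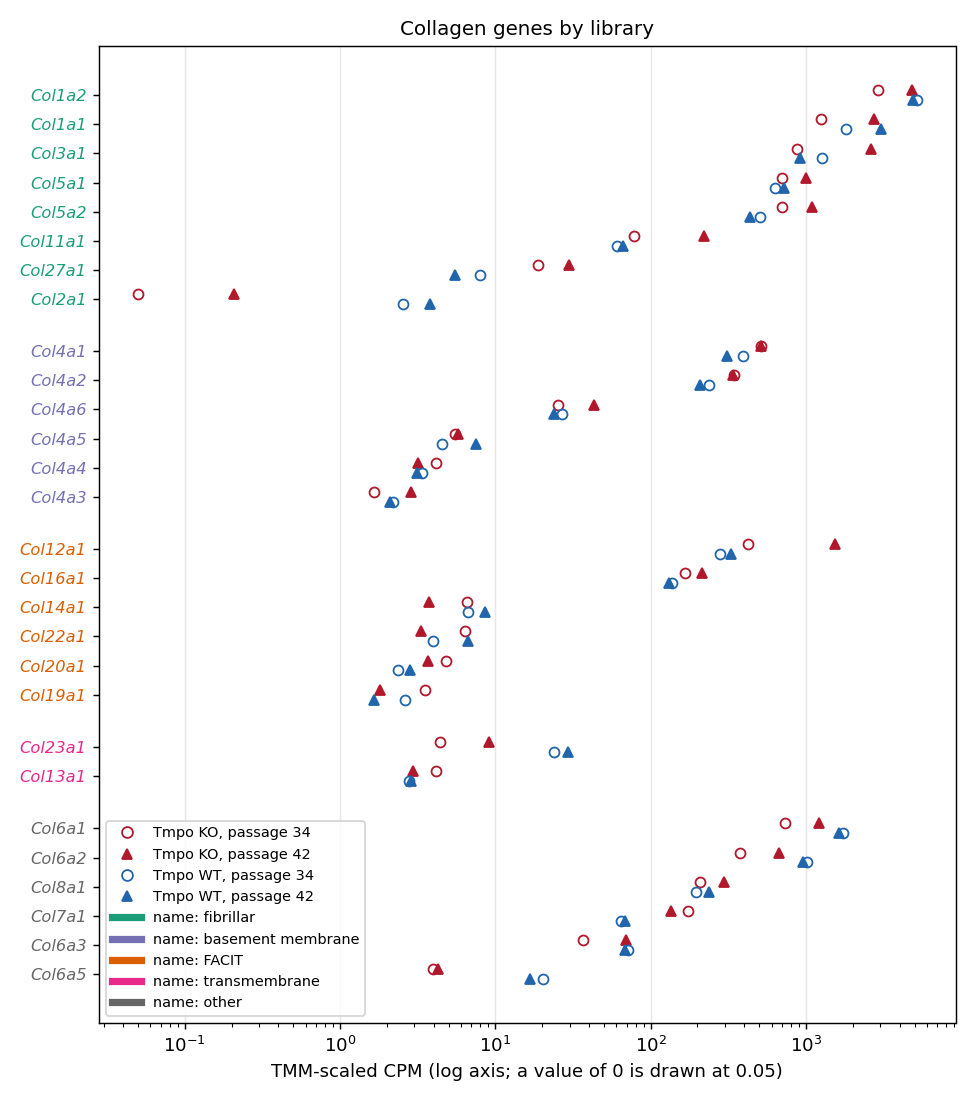
TMM-scaled CPM (x axis, log scale) of 28 collagen genes in each library, by class (colour of the name) and by mean level within a class. In each row *Tmpo* KO is drawn above *Tmpo* WT, with open circles for passage 34 and triangles for passage 42; the *Col2a1* value of 0 is drawn at 0.05. The KO and WT points are well apart for *Col27a1*, *Col2a1*, *Col23a1*, *Col7a1* and *Col6a5*, and the KO triangle lies far to the right for *Col3a1*, *Col11a1* and *Col12a1*.

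No gene of the basement membrane class was called by edgeR's quasi-likelihood, likelihood ratio or exact test or by DESeq2, and 2 of the 6 had an unadjusted p under 0.05 (12.8% of all transcripts did). These were *Col4a1* and *Col4a2*, the chains of the type IV network found in nearly all basement membranes. *Col4a1* was at 512 and 510.2 CPM in KO, against 391 and 308 CPM in WT (log2 fold change 0.55 ± 0.21, adjusted p = 0.275). *Col4a2* was at 343 and 338 CPM in KO, against 236 and 208 CPM in WT (0.62 ± 0.20, adjusted p = 0.166). For both genes the 2 KO libraries were nearly equal and both lay above the WT libraries. The pair is transcribed head to head on chromosome 8, and the annotated genes overlap by 22 bases at their starts. *Col4a6* and *Col4a5*, head to head on the X chromosome 1308 bases apart, did not show this parallel. *Col4a6* was at 25.3 and 43.3 CPM in KO, against 26.8 and 23.9 CPM in WT (0.44 ± 0.29), and the used ID of *Col4a5* at 5.49 and 5.77 CPM in KO, against 4.55 and 7.53 CPM in WT (−0.11 ± 0.36). *Col4a3* and *Col4a4*, chains known from the kidney filter and 71 bases apart on chromosome 1, were at 1.66 to 4.13 CPM in the KO libraries and at 2.11 to 3.37 CPM in WT.

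Among the FACITs, *Col12a1* moved furthest and was not called. Type XII collagen links fibrils to their surroundings in tissues under load. *Col12a1* was at 422 and 1533 CPM in KO, against 280.0 and 328 CPM in WT. Both KO libraries were above WT, and the KO library at passage 42 was far above the other 3. Its log2 fold change was 1.69 ± 0.45 with an adjusted p of 0.0863. The log2 fold change was 0.43 without the KO library at passage 42 and 2.32, with a call, without the KO library at passage 34 (adjusted p = 2.5e-13). *Col16a1*, a FACIT of dermal fibrils, was at 167 and 214 CPM in KO, against 138 and 130.2 CPM in WT (0.50 ± 0.21, adjusted p = 0.313). *Col14a1*, which also binds fibril surfaces, was at 6.59 and 3.74 CPM in KO, against 6.65 and 8.56 CPM in WT (−0.56 ± 0.38, adjusted p = 0.631). The other 5 tested members of the class, *Col22a1*, *Col20a1*, *Col19a1*, *Col9a2* and *Col9a3*, stayed under 7 CPM in every library, with log2 fold changes from −0.15 to 0.71. Over the 8 tested FACITs, 2 had an unadjusted p under 0.05 in edgeR's quasi-likelihood test, as did 12.8% of all transcripts. The likelihood ratio and exact tests of edgeR each called *Col12a1*, and DESeq2 called none of the class.

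*Col23a1*, one of the 2 transmembrane collagens that passed the filter, fell. It was at 4.38 and 9.14 CPM in KO (71 and 176 counts), against 23.8 and 29.5 CPM in WT (282 and 462 counts). The means were 6.76 ± 3.37 CPM in KO and 26.6 ± 4.06 CPM in WT (SD, n = 2 each), and the groups did not overlap. The log2 fold change was −1.97 ± 0.36 (adjusted p = 0.0144), so the WT level was 3.92 times the KO level. The gene spans chr11:51103422-51397420 on the plus strand. Without the WT library at passage 42 the adjusted p was 0.173. *Col13a1*, the other tested transmembrane collagen, was at 4.13 and 2.96 CPM in KO, against 2.78 and 2.87 CPM in WT (0.32 ± 0.39). *Col17a1*, the hemidesmosome collagen of keratinocytes, and *Col25a1* had 0 to 4 counts per library.

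*Col7a1* rose in KO. It was at 173 and 136 CPM in KO (2814 and 2611 counts), against 64.7 and 68.4 CPM in WT (768 and 1072 counts). The means were 155 ± 26.7 CPM in KO and 66.6 ± 2.66 CPM in WT (SD, n = 2 each), and both KO libraries were well above WT. The fold change was 2.32 (log2 1.21 ± 0.21, adjusted p = 0.0101). Within KO it dropped by 0.35 on the log2 scale at passage 42 relative to passage 34. The gene lies at chr9:108855631-108886920 on the plus strand, has 118 coding exons, the most in the family, and contains the microRNA gene *Mir711* on the same strand. Leaving out the WT library at passage 34 or at passage 42 ended the call (adjusted p = 0.0932 and 0.110).

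Of the 6 type VI chains, 1 was called, and differences between the chains were not tested. *Col6a1* and *Col6a2*, which form the filament with a further chain, were among the 6 most abundant members. *Col6a1* was at 727 and 1208 CPM in KO, against 1730.0 and 1636 CPM in WT (log2 fold change −0.80 ± 0.27, adjusted p = 0.189). *Col6a2* was at 378 and 673 CPM in KO, against 1020.4 and 958 CPM in WT (−0.91 ± 0.27, adjusted p = 0.134). Both KO libraries lay below both WT libraries for each gene, the lower value at passage 34, and neither was called, although DESeq2 and the likelihood ratio and exact tests called *Col6a2*. Without the KO library at passage 42 both were called lower (−1.26 and −1.43). The used ID of *Col6a3*, the usual further chain, was at 36.7 and 69.6 CPM in KO, against 71.5 and 68.6 CPM in WT, counting only reads that its other ID does not share (−0.40 ± 0.28, adjusted p = 0.659).

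*Col6a5*, an alternative to that further chain, fell, and of the 5 called genes it alone kept its call under all 14 alternatives. It was at 3.94 and 4.26 CPM in KO (64 and 82 counts), against 20.1 and 16.7 CPM in WT (239 and 262 counts). The means were 4.10 ± 0.223 CPM in KO and 18.4 ± 2.41 CPM in WT (SD, n = 2 each), and the libraries of each genotype were close to each other. The log2 fold change was −2.16 ± 0.31 (adjusted p = 0.00392), a WT level 4.48 times that of KO. The adjusted p under the alternatives ranged from 8.23e-09 to 0.0493. *Col6a5* lies at chr9:105758400-105862974 on the minus strand between *Col6a6* and *Col6a4*, 27984 and 28810 bases away on the same strand. *Col6a6* was at 1.79 and 1.25 CPM in KO, against 2.44 and 2.36 CPM in WT (−0.67 ± 0.41). *Col6a4* was at 8.01 and 10.3 CPM in KO, against 11.96 and 6.51 CPM in WT. Neither neighbour was called (adjusted p = 0.595 and 0.999).

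*Col8a1*, a short-chain network collagen, was at 207 and 297 CPM in KO, against 195 and 238 CPM in WT (0.22 ± 0.23, adjusted p = 0.811). *Col18a1*, a basement membrane zone collagen named here after its values were seen, had 11 and 95 counts in KO, against 106 and 129 counts in WT, for the one of its 2 IDs with more reads. The KO library at passage 34 was far below the others, and the gene was not called in edgeR's quasi-likelihood test (−1.59 ± 0.62, adjusted p = 0.286). It was called lower in that test without a filter on low counts (adjusted p = 0.00176), and its log2 fold change was −3.69 without the KO library at passage 42. *Col18a1* passed the filter through its WT libraries alone, the group where the used ID is high, so its difference is given as a description. Reads that its 2 IDs share were left out. Its other ID had 10 and 19 counts in KO, against 4 and 7 in WT, the opposite order. The other 5 tested genes of this class, *Col8a2*, *Col10a1*, *Col15a1*, *Col26a1* and *Col28a1*, stayed under 9 CPM in every library with log2 fold changes from −0.62 to 0.91.

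The KO minus WT difference depended on the passage for most abundant members. Among the 20 tested collagen genes with a mean of at least 10 CPM, the log2 difference was more positive at passage 42 than at passage 34 in 19, or 95%, against 60.8% of the 7696 transcripts at that level. The exception was *Col7a1*. The median difference of the 20 genes was 0.11 at passage 34 and 0.68 at passage 42. Within KO the median change from passage 34 to 42 was 0.69, and within WT it was −0.08. For transcripts at that level in general these 2 medians were 0.10 and −0.01. Among the 21 tested members under 10 CPM, 5 had the more positive difference at passage 42 (23.8%, against 42.5% of 6159 transcripts at that level). With 1 library per genotype and passage these differences have no test, the 10 CPM line and this comparison were set after values were seen, and all of them share the same 4 libraries.

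*Col12a1*, *Col3a1* and *Col11a1* shifted most among the abundant members. The KO minus WT difference of *Col12a1* was 0.59 at passage 34 and 2.23 at passage 42. That of *Col11a1* was 0.36 and 1.72 at the same passages. The difference of *Col3a1* was −0.54 at passage 34 and 1.52 at passage 42, a change of direction. *Col6a1* was at −1.25 and −0.44 at these passages, and *Col6a2* at −1.43 and −0.51, nearer to WT at passage 42. Of the genes called, *Col27a1* had differences of 1.21 and 2.42, *Col7a1* of 1.42 and 0.99, *Col23a1* of −2.41 and −1.68 and *Col6a5* of −2.31 and −1.94, each with the same sign at both passages. Over all 41 genes, 27 kept their sign, against 8254 of all 13855 transcripts tested.

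**Figure D3:**
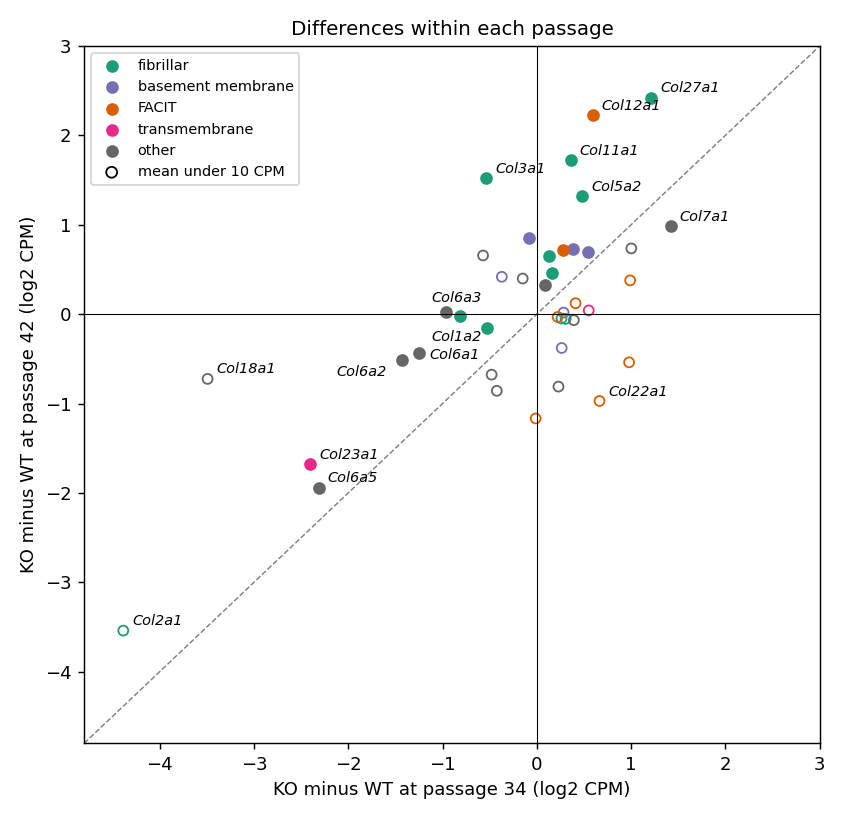
KO minus WT difference in log2 CPM at passage 34 (x axis) and at passage 42 (y axis) for the 41 tested collagen genes, with filled points for genes with a mean of at least 10 CPM. The dashed line marks equal differences; 19 of the 20 filled points lie above it, and *Col7a1* lies below.

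In a fit of passage 42 against passage 34 with genotype as a block, 3 collagen genes were called higher at passage 42, *Col12a1*, *Col1a1* and *Col11a1*, or 7.32% of 41, against 1.77% of all transcripts. None was called lower by edgeR's quasi-likelihood test (0.541% of all transcripts were), and none had an unadjusted p under 0.05 in that direction. The log2 fold changes were 1.05 for *Col12a1* (adjusted p = 4.88e-05), 0.95 for *Col1a1* (adjusted p = 0.00113) and 0.82 for *Col11a1* (adjusted p = 0.00358). *Col1a1* was higher at passage 42 in both genotypes, by 1.14 in KO and 0.76 in WT. In contrast, the change of *Col12a1* was 1.86 in KO and 0.23 in WT, and that of *Col11a1* was 1.49 in KO and 0.12 in WT. Without the genotype block edgeR called 0 transcripts, with 481 higher and 188 lower at an unadjusted p under 0.05, among them 2 collagen genes that were higher.

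Together the collagen genes took 0.994% of the reads given to transcripts in KO at passage 34 and 1.73% at passage 42, against 1.34% and 1.42% in WT. The KO libraries were thus the lowest and the highest. Most of this was fibrillar, 0.678% and 1.23% in KO, against 0.924% and 1.01% in WT. *Col1a1* and *Col1a2* alone made up 0.428% and 0.741% in KO, against 0.678% and 0.792% in WT. The FACIT share was 0.0632% and 0.173% in KO, against 0.0425% and 0.0481% in WT, and nearly all of it was *Col12a1* and *Col16a1*. The basement membrane share was 0.0916% and 0.0887% in KO, against 0.0648% and 0.0552% in WT, without overlap between the genotypes. The share of the other kinds, which type VI belongs to, did not overlap either and was lower in KO, 0.160% and 0.238%, against 0.306% and 0.302% in WT. The transmembrane share was also lower, at most 0.00123% in KO, against at least 0.00261% in WT. *Col23a1*, called lower above, gave 282 of the 318 and 462 of the 509 transmembrane reads in WT. In KO it gave 71 of 138 and 176 of 241.

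**Figure D4:**
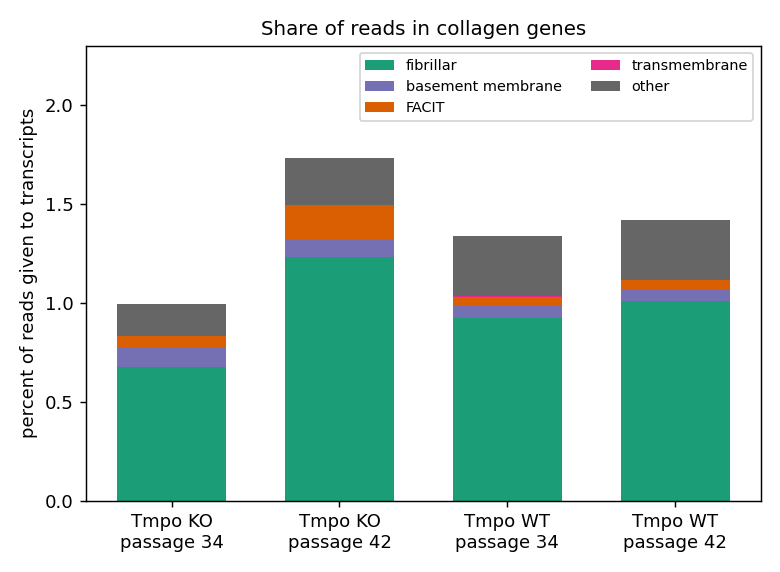
Percent of the reads given to transcripts that fell in collagen genes (y axis) in each library (x axis), stacked by class. The KO bars are the lowest, 0.994% at passage 34, and the highest, 1.73% at passage 42, with the WT bars at 1.34% and 1.42% between them, and the fibrillar part is the largest in every bar.

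Counts grow with transcript length, and the rankings and cuts by mean CPM above do not correct for it. Levels were therefore also compared between genes as CPM per kb of transcript, for the 36 members with 1 transcript ID. *Col1a2* led with 547 and 899 CPM per kb in KO, against 963 and 912 in WT, and *Col1a1* followed with 209.5 and 463 in KO, against 303 and 514 in WT. Both exceeded all other members in mean level. To judge the low end, 12 markers of keratinocytes, endothelial cells, immune cells and adipocytes with 1 ID were scaled in the same way, and their means over the 4 libraries were 0.460 to 1.51 CPM per kb, with 0.214 to 2.08 CPM per kb in single libraries. Of the 36 collagen genes, 18 had means at or below 1.51 CPM per kb. They included *Col6a5*, at 0.424 and 0.458 CPM per kb in KO, against 2.17 and 1.80 in WT, so both KO levels and one WT level lay within the single-library range of the markers and the other WT level just above it. *Col27a1* was at 2.46 and 3.93 CPM per kb in KO, against 1.05 and 0.721 in WT, with the WT levels inside that range and the KO levels above it. *Col7a1* was above it in every library.

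**Figure D5:**
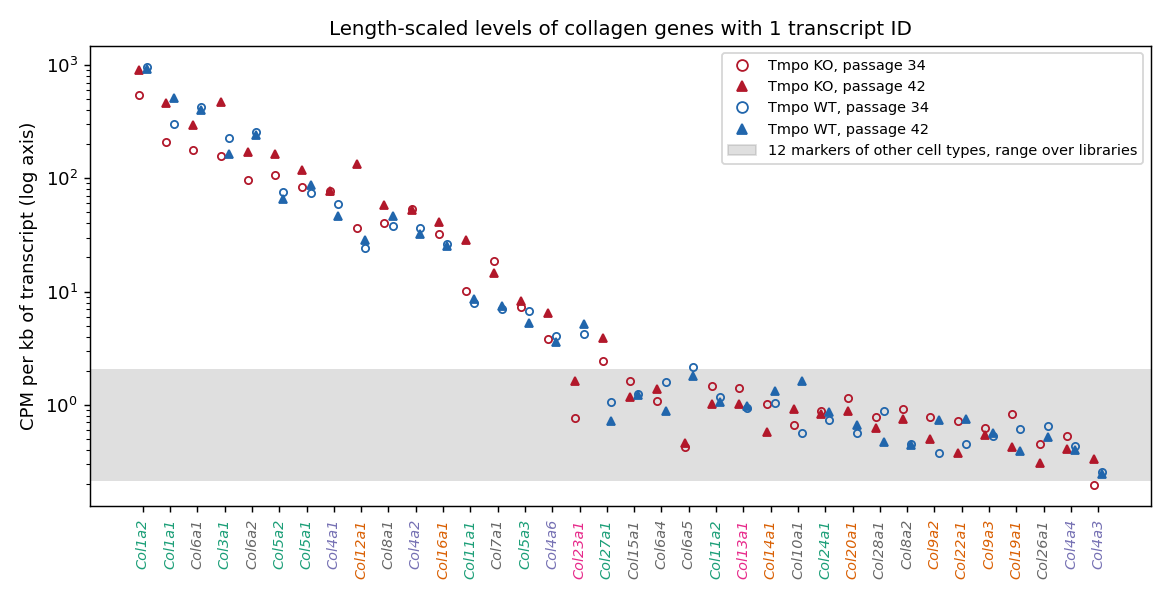
CPM per kb of transcript (y axis, log scale) for the 36 collagen genes with 1 transcript ID (x axis, by mean), with *Tmpo* KO left of *Tmpo* WT in each column, open circles for passage 34 and triangles for passage 42. The grey band is the range of 12 markers of other cell types over single libraries, 0.214 to 2.08 CPM per kb, in which the *Col6a5* points of KO lie, while those of *Col7a1* lie above it.

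Chains that share a trimer were compared as log2 ratios of CPM per kb within a library, as a description. They were not tested, and an exact two-sided permutation test of 2 libraries against 2 cannot go below 0.333. The *Col1a1* to *Col1a2* ratio was −1.38 and −0.96 in KO, against −1.67 and −0.83 in WT, and differed more between passages than between genotypes. The *Col4a1* to *Col4a2* ratio was 0.54 and 0.56 in KO, against 0.70 and 0.53 in WT, and the *Col6a1* to *Col6a2* ratio was 0.89 and 0.79 in KO, against 0.71 and 0.72 in WT. Between the genotype means these ratios differed by −0.06 and 0.13. The *Col4a1* to *Col4a2* ratio overlapped between the genotypes, and the *Col6a1* to *Col6a2* ratio did not. The ratio of the used *Col6a3* ID to *Col6a1* was −5.40 and −5.21 in KO, against −5.69 and −5.67 in WT, without overlap and with a difference of 0.37, and it rests on the part of *Col6a3* reads given to that ID. The *Col5a1* to *Col5a2* ratio was −0.35 and −0.48 in KO, against −0.03 and 0.38 in WT, without overlap and with a difference of −0.59 between the means. The *Col8a1* to *Col8a2* ratio was 5.45 and 6.27 in KO, against 6.42 and 6.72 in WT, also without overlap. Its means differed by −0.71, the largest of these differences, resting on 23 to 65 counts of *Col8a2* per library.

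Collagen chains need enzymes and carriers to fold, leave the cell and cross-link, and these were followed through lists of 61 genes, of which 52 were tested. Genes with several IDs, among them *Serpinh1*, *Plod2*, *Lox*, *Mia2*, *Cd44* and *Ddr1*, were followed through 1 ID, on reads that their other IDs do not share. *P3h1* and *Fkbp10*, also with several IDs, did not pass the filter. None was called by edgeR's quasi-likelihood, likelihood ratio or exact test or by DESeq2, and 13 of the 52 (25%) had an unadjusted p under 0.05, against 12.8% of all transcripts. The median log2 fold change over the 52 was −0.14, against 0.02 for all transcripts. In the list for hydroxylation and folding (19 tested, median −0.20), 13 genes were lower and 6 higher in KO by sign, or 68.4% lower, against 48.4% of all transcripts. *Fkbp14*, a prolyl isomerase of the endoplasmic reticulum, was at 20.8 and 33.1 CPM in KO, against 56.7 and 40.9 CPM in WT (−0.85 ± 0.28, adjusted p = 0.183), and its relative *Fkbp7* at 21.4 and 29.2 CPM in KO, against 45.3 and 35.2 CPM in WT (−0.66 ± 0.26, adjusted p = 0.282). Both were lower in each KO library than in either WT library. *Colgalt2*, which adds galactose to hydroxylysine, stayed under 4 CPM (0.97 ± 0.42).

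In the cross-linking list (5 tested, median 0.72), *Loxl3* and *Loxl2*, oxidases that start covalent cross-links, lay higher in KO. *Loxl3* was at 231 and 208 CPM in KO, against 145 and 119 CPM in WT (0.73 ± 0.20, adjusted p = 0.101). *Loxl2* was at 574 and 343 CPM in KO, against 326 and 147 CPM in WT (0.95 ± 0.35, adjusted p = 0.247). For both genes each KO library exceeded both WT libraries. *Tgm2*, a transglutaminase, was at 10.9 and 7.95 CPM in KO, against 20.05 and 14.05 CPM in WT (−0.85 ± 0.32, adjusted p = 0.257). The procollagen processing list (9 tested, median 0.13) held related proteases that differed in direction. *Adamts2*, which removes N-propeptides, was at 39.0 and 39.4 CPM in KO, against 63.3 and 57.0 CPM in WT (−0.62 ± 0.21), and *Adamts14*, of the same subfamily, at 62.9 and 63.8 CPM in KO, against 42.9 and 40.2 CPM in WT (0.61 ± 0.21). Libraries of a genotype were close to each other for both genes, and adjusted p was 0.204 and 0.202. *Tll1*, a relative of the C-propeptide protease, was at 18 and 14.9 CPM in KO, against 10.4 and 10.3 CPM in WT (0.67 ± 0.29).

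In the secretion list (11 tested, median −0.13), *Sec24d*, a coat protein of vesicles that carry procollagen, had a log2 fold change of −0.38 ± 0.20. That of *Creb3l1*, a transcription factor of secretory cells, was 0.38 ± 0.22. The used ID of *Mia2*, a cargo factor at exit sites of the endoplasmic reticulum, had 1.12 ± 0.50 at 2.49 CPM or less. Of the collagen receptors (8 tested, median −0.10), *Itga11*, an integrin chain for fibrillar collagen, was at 40.2 and 120.4 CPM in KO, against 126 and 108 CPM in WT. Its KO library at passage 34 was the low one, as for *Col1a2*, *Col6a1* and *Col6a2*. The used ID of *Cd44*, a hyaluronan receptor that also binds collagen, was at 10.2 and 20.6 CPM in KO, against 4.72 and 9.90 CPM in WT (1.07 ± 0.43, adjusted p = 0.301). The used ID of *Ddr1*, a collagen-activated kinase, had 1.06 ± 0.45 at 2.10 CPM or less.

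The promoters of the 4 called genes with a RefSeq window are shown because these genes differed in opposite directions. Each is the 250 bases just before the start in the RefSeq promoter table, found again in NCBI37/mm9 and read on the strand of the gene, with GGGCGG (the GC box), CCAAT and TATAAA in capitals on either strand. The *Col27a1* window lies inside the gene as NCBIM37 annotates it, before a RefSeq start 1408 bases downstream of the annotated one. The motifs do not overlap in these windows, and no annotated exon lies in them.
Col27a1: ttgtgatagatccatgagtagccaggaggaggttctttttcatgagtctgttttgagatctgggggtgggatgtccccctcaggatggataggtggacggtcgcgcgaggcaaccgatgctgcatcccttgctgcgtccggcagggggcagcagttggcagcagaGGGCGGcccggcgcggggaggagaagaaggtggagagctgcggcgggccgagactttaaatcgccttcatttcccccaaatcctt
Col7a1: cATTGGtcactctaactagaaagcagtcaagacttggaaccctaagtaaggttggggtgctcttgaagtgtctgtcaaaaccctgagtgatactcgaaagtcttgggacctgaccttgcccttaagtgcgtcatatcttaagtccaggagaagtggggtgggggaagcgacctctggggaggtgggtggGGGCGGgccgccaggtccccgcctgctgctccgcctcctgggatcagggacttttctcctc
Col23a1: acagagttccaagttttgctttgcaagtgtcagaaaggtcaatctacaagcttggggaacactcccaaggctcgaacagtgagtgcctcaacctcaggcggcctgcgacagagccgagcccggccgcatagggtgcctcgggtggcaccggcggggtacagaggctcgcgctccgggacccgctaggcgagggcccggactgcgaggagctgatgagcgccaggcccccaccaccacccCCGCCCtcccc
Col6a5: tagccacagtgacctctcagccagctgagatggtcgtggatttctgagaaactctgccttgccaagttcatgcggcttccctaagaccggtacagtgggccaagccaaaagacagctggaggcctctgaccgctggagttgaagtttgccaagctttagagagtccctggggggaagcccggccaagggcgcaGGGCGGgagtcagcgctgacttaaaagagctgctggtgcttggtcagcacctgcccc
They lie at chr4:62876196-62876445 (plus strand), chr9:108855381-108855630 (plus), chr11:51103172-51103421 (plus) and chr9:105862975-105863224 (minus). Each window held 1 GC box, that of *Col23a1* on the opposite strand as CCGCCC, and the *Col7a1* window also held 1 CCAAT box, at its far end on the opposite strand. None held TATAAA. Among the 35 collagen genes with a window, 21 held a GC box, 13 a CCAAT box and 5 TATAAA in any promoter window of the gene. Over all 32851 windows, counted per window and not per gene, the shares were 32.7%, 33.9% and 12.4%. These matches describe letters and not bound sites.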

How the data were processed

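Total RNA depleted of rRNA was sequenced from 2 *Tmpo* KO and 2 *Tmpo* WT libraries of imMDFs. The authors deposited raw counts per RefSeq transcript, made with cutadapt, TopHat2 version 2.0.9 on mm9 and htseq-count at a mapping quality above 20. For its strand setting, the sources used here give nothing. An exon lies over an opposite-strand exon in 8 collagen genes (*Col1a1*, *Col4a1*, *Col4a2*, *Col5a1*, *Col9a3*, *Col10a1*, *Col15a1*, *Col22a1*). Counts of these genes may include reads of that neighbour, or may lack reads set aside as ambiguous. Because each transcript ID is its own feature, reads in exons shared by 2 IDs were ambiguous (12.1% to 13.4% of reads), and reads in no feature stayed out of library sizes.

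Levels are CPM scaled by TMM factors (0.979 to 1.03). Transcripts were tested with edgeR 4.0.16 in R 4.3.3 (quasi-likelihood test, Benjamini-Hochberg over all 13855 transcripts with at least 1 CPM in both libraries of at least 1 genotype). SEs came from the fold change and the test statistic. Within a passage, untested differences in log2 CPM were taken after adding a prior count of 2. Alternatives were DESeq2 1.42.0, the other edgeR tests, scalings, filters, summed IDs and each library left out. Fits were tested on simulated data. Symbols, promoters and exons came from RefSeq tables and the NCBIM37 annotation. Python 3.11.15 was used otherwise.

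The members, classes and lists were chosen with earlier results of these data known. Named are all called collagen genes, up to 6 tested genes per class with the highest mean CPM, and up to 3 genes per list with the smallest p. Authors' comparisons, ChIP and protein data were not used here.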

Additional observations from a re-analysis of the deposited data

Results flagged for a closer look

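In 6 of the 28 named collagen genes the KO library lay above the WT library at one passage and below it at the other. Such changes were common, since the same sign at both passages was found in 27 of the 41 tested collagen genes and in 8254 of all 13855 transcripts. With 1 library per genotype and passage, the difference between the passages was not tested. The KO minus WT difference in log2 CPM of *Col3a1*, the type III chain, was −0.54 at passage 34 and 1.52 at passage 42, on 14114 to 50332 counts per library. For *Col6a3* it was −0.96 and 0.019 at these passages, for *Col4a6* −0.080 and 0.85, and for *Col4a3* −0.37 and 0.42. The opposite order was seen in *Col4a5*, at 0.26 and −0.38, and in *Col22a1*, at 0.66 and −0.97. *Col4a3*, *Col4a5* and *Col22a1* had 26 to 118 counts per library.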

How the results depend on the processing

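The 5 collagen genes called kept their direction under every alternative in which they were tested, and of the 23 named collagen genes not called, 9 changed sign when 1 library was left out, none under another setting. All transcripts called numbered 613 by edgeR's exact test (336 higher, 277 lower), 638 by its likelihood ratio test (349 and 289), 740 without a filter (406 and 334) and 545 by DESeq2, with 265 lower, against 381 in the fit reported. The collagen genes called higher were 5 by the exact and the likelihood ratio test, 4 by DESeq2 and 6 without a filter (*Col3a1*, *Col5a2*, *Col11a1* and *Col12a1* besides those reported), which also called 6 lower (*Col6a1*, *Col6a2* and *Col18a1* besides) and 1 cross-linking gene.

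With the replicate number as a block, 1092 transcripts were called (563 higher, 529 lower), 7 collagen genes higher (*Col4a1*, *Col4a2*, *Col5a2*, *Col11a1* and *Col12a1* besides those reported) and 6 lower (*Col6a1*, *Col6a2* and *Col18a1* besides), and 2 genes for hydroxylation and folding, 3 for cross-linking and 2 collagen receptors. Deviations of same-numbered samples correlated at 0.17 over 2 pairs, and the numbers mark passages of different lines, so no pairing was assumed. Without the genotype block, 0 transcripts and 0 collagen genes were called between passages.

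Leaving out 1 library, with the lone sample assumed to vary like the others, gave 109 to 1291 transcripts called (47 to 626 higher, 62 to 665 lower), 0 to 6 collagen genes higher and 1 to 8 lower. The lowest counts came without the WT library at passage 42, when *Col6a5* alone was called. Then 0 to 4 genes of the hydroxylation and folding list were called, 0 to 1 of the secretion list, 0 to 2 of the cross-linking list and 0 to 2 of the receptors. Class medians of log2 fold change ranged from 0.10 to 0.46 (fibrillar), −0.11 to 0.37 (FACIT), −1.07 to −0.73 (transmembrane) and −0.43 to −0.20 (other). The transmembrane median, of 2 genes, was 0.13 without a filter and −1.97 with a minimum of 1 CPM of all reads in a file. The median of the other class was −0.19 with that minimum and −0.21 with 1 CPM in all 4 libraries. *Col2a1* did not pass these 2 filters. Settings not named changed no count by over 1.5 times. The causes were not tested, beyond fewer genes or samples where the alternative removes them.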
